A study of Mus musculus with 12 samples.

Results

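RNA was sequenced from hepatocytes of 12 mice, and the question here was which transcripts differed between P16 and GFP mice in the same way before and after partial hepatectomy. All 12 libraries entered a single fit, 6 from P16 mice and 6 from GFP mice, with the time of sampling (0 h or 48 h) as a block and the arm as the tested term. Of 12257 genes tested, 281 differed between the arms over both times, and these 281 are the subject of the text below. Every mouse was a C57BL/6J wild type, 3 months old and on a chow diet, and every mouse carried an adeno-associated virus of serotype AAV8 with the hepatocyte promoter TBG. P16 mice had received AAV8-TBG-eGFP-P16 and GFP mice AAV8-TBG-eGFP, so the vectors of both arms carried eGFP. In each arm 3 mice were sampled without surgery (0 h) and 3 mice 48 h after a 70% hepatectomy, itself performed 1 week after the injection. Hepatocytes were freshly isolated by collagenase perfusion, and no source used here states the sex of the animals.

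P16, a product of Cdkn2a, binds the cyclin-dependent kinases CDK4 and CDK6 and keeps them from phosphorylating the retinoblastoma protein, which holds E2F target genes silent. It accumulates in senescent cells and is a standard marker of them. After partial hepatectomy the remaining hepatocytes, which are quiescent in the adult liver, leave that state and divide. Hepatocytes before the operation are thus at rest, and those taken 48 h after it are in the course of regeneration.

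The libraries held 14617049 to 25409451 reads in genes. The main axis of variation (64.8% of the variance of log2 levels) separated the times. The next axis (8.14%) placed the P16 libraries at -21.6 to -6.70 and the GFP libraries at -2.58 to 40.9, and GFP replicate 2 at 0 h stood apart at 40.9. The 15 hepatocyte markers summed to 90358 to 106420 CPM in P16 libraries and 82196 to 120930 CPM in GFP libraries (counts scaled to library size by TMM, as for every level given). Other cells left traces. The 4 tested lymphocyte markers summed to at most 10.5 CPM and 22 macrophage markers to 88.9 to 374 CPM. Of 13 neutrophil markers only Prtn3 had enough reads to be tested. At 48 h 7, 8 and 7 of the 13 had 0 reads in P16 libraries, and 7, 8 and 9 in GFP libraries. Ly6g, Mpo, Ctsg, Retnlg, Ngp and Camp had 0 reads in every P16 library at 48 h. Prtn3, a granule protease named after its values were seen, stood at 0 to 1.73 CPM in all libraries at 0 h. At 48 h Prtn3 had 69.1, 210.1 and 76.9 CPM in P16 mice, against 13.4, 14.1 and 7.46 CPM in GFP mice. Its pooled log2 fold change was 2.48 (adjusted p = 0.164), and at 48 h alone it was called higher (3.345).

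Cdkn2a (ENSMUSG00000044303, chromosome 4, 89274471 to 89294653, minus strand, GRCm38) checked the labels. It had 620, 105 and 355 reads in P16 mice at 0 h, against 0, 0 and 0 in GFP mice at 0 h. At 48 h Cdkn2a had 256, 425 and 402 reads in P16 mice, against 0, 5 and 0 in GFP mice. The 0 h difference was at least 130.8-fold, set against a floor of 3 reads per GFP library. Over both times the log2 fold change was 8.80 (SE 0.87, adjusted p = 0.0115). Without GFP replicate 2 at 48 h, the library with the 5 reads, all GFP libraries were at 0, the fitted log2 fold change was 11.68 and the adjusted p was 0.0798. The pooled fold thus depends on those 5 reads. Reads of the vector and of the mouse gene cannot be told apart in these counts.

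A gene was called at a Benjamini-Hochberg adjusted p under 0.05 in the quasi-likelihood F test of edgeR, adjusted over all 12257 genes. The 281 called genes were 2.29% of those tested, with 208 higher (1.7%) and 73 lower (0.596%) in P16 mice, and 2086 genes (17%) had an unadjusted p under 0.05. Their median log2 fold change was 0.56 for the higher genes and -0.68 for the lower genes, or 1.47-fold and 1.60-fold. More than 2-fold differences were found in 22 higher and 18 lower genes. At the threshold stood Atp5j2 and Ttc41 on the called side (adjusted p = 0.0498) and Irf3 and Uqcrq on the other (adjusted p = 0.0502).

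Of the 281 genes, 193 (1.57% of the genes tested, with 145 or 1.18% higher and 48 or 0.392% lower) also showed no overlap of the 3 P16 and 3 GFP libraries at 0 h nor at 48 h, in the same direction at both times. Called or not, 437 genes (3.57%) had no overlap at both times in one direction and 168 (1.37%) in opposite directions. For 160 of the 193 (1.31% of all genes) the 95% interval of the difference between the effects at 48 h and 0 h lay within 1 log2 unit of zero, a bound of 2-fold on that difference. The interval met that bound for 54.3% of all genes, and the median SE of the difference was 0.287. The other 33 genes had an effect in the same direction whose sizes could not be placed that closely. The remaining 88 called genes had overlapping libraries at one time at least. The count of 193 was 116 without P16 replicate 1 and 321 without GFP replicate 1 at 0 h, 64 and 89 without P16 replicate 2 and 3 at 48 h, and 60, 62 and 53 without GFP replicate 1, 2 and 3 at 48 h.

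Most of these genes were not called when each time was tested alone. At 0 h 27 genes were called (0.22%) and at 48 h 280 (2.28%), and the pooled calls included 10 of the 27 and 99 of the 280. The remaining 172 pooled calls were called at neither time alone. Without P16 replicate 2 or 3 or GFP replicate 1 or 3 at 0 h, the 0 h count was 47, 5, 148 or 12. Without P16 replicate 2 or 3 at 48 h the 48 h count was 21 or 175, without GFP replicate 1, 2 or 3 at 48 h it was 31, 28 or 10, and without GFP replicate 2 at 0 h 665. The effects at 0 h and at 48 h compared separate libraries, but their tests shared 1 estimate of the spread from all 12 libraries. They were thus not independent tests. Of the 27 genes called at 0 h, 18 had the same sign at 48 h. Of these 18, 9 had an unadjusted p under 0.05 there (17.5% of all genes had one, with either sign). Of the 280 genes called at 48 h, 181 had the same sign at 0 h. Of these 181, 67 had an unadjusted p under 0.05 there (13.5% of all genes, with either sign). Over all genes 56% had the same sign at both times, and the log2 fold changes at the times had a correlation across genes of 0.103, or 0.191 in the 8659 genes of at least 5 CPM. Genes are not independent replicates, and these correlations are descriptions. All 281 called genes had the same sign at both times, which the choice of genes by a pooled effect favours.

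**Figure D1:**
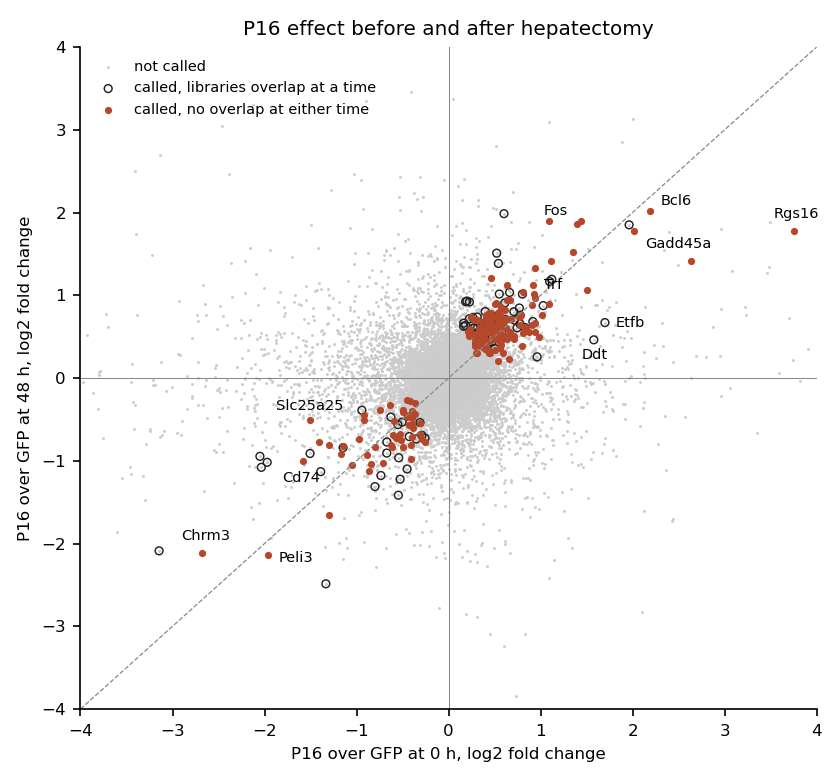
Log2 fold change of P16 over GFP at 48 h (vertical axis) against that at 0 h (horizontal axis), with 1 point per gene. Filled points are the 193 called genes with no overlap at either time, open circles the 88 other called genes and grey points the genes not called, and the dashed line marks equal effects. The called genes lie where both effects have the same sign, while the cloud of all genes does not follow it (correlation 0.103). Axes end at 4, and 3 called genes (Cdkn2a, Tcf24 and Ppp1r42) lie beyond them.

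The genes with a rise of similar size at both times included secreted, mitochondrial and signalling proteins. Trf, the serum iron carrier transferrin made by hepatocytes (chromosome 9, 103204001 to 103230444), had 183, 153 and 154 CPM in P16 mice at 0 h, against 80.7, 82.9 and 95.4 in GFP mice. At 48 h Trf had 110, 232 and 136 CPM in P16 mice, against 87.1, 58.0 and 74.6 in GFP mice. The groups did not overlap at either time, and P16 replicate 2 at 48 h was the highest of all libraries. Trf was 2.03-fold higher over both times (log2 fold change 1.02, SE 0.16, adjusted p = 0.0122), with effects of 0.92 at 0 h and 1.12 at 48 h and a difference of 0.20 (95% interval -0.49 to 0.89).

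Dusp6, the phosphatase that switches off the kinase ERK (chromosome 10, 99263231 to 99267489), had 59.6, 35.3 and 56.3 CPM in P16 mice at 0 h, against 34.7, 28.4 and 24.3 in GFP mice. At 48 h Dusp6 had 87.0, 75.8 and 90.7 CPM in P16 mice, against 55.7, 47.3 and 45.9 in GFP mice. Dusp6 stood higher in every P16 library of a time than in any GFP library of that time, although 35.3 and 34.7 CPM lay close. Its effect was 0.79 at 0 h and 0.77 at 48 h (pooled log2 fold change 0.78, SE 0.12, adjusted p = 0.0122; difference -0.02, 95% interval -0.54 to 0.49).

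Gcat, a mitochondrial enzyme of threonine breakdown, averaged 23.9 ± 1.61 CPM in P16 mice and 12.6 ± 4.20 CPM in GFP mice at 0 h, and 19.3 ± 6.76 CPM in P16 mice against 9.51 ± 1.28 CPM in GFP mice at 48 h (SD, n = 3 each). It was 1.96-fold higher over both times (adjusted p = 0.0141). Sec61g, a subunit of the channel that passes new proteins into the endoplasmic reticulum, was 1.75-fold higher (log2 fold change 0.81, SE 0.14, adjusted p = 0.0122), with effects of 0.67 at 0 h and 0.94 at 48 h. Aspg, an asparaginase, was 1.84-fold higher (adjusted p = 0.0122), with effects of 0.63 at 0 h and 1.13 at 48 h whose difference could not be placed within 2-fold (0.50, 95% interval -0.06 to 1.05). The small sulfur transferase gene Tstd1 was 1.74-fold higher (adjusted p = 0.0206). Ubb, a polyubiquitin gene named after its values were seen, was 1.47-fold higher (adjusted p = 0.0141), with effects of 0.55 at 0 h and 0.56 at 48 h. Trf, Dusp6, Gcat, Sec61g, Aspg and Ubb kept their calls under all 21 alternatives. Tstd1 lost its call without GFP replicate 1 or 3 at 48 h (adjusted p = 0.0631 and 0.0632).

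Larger rises were found in stress and transcription factor genes, which varied more between mice. Bcl6, a transcriptional repressor that growth hormone holds down in mouse liver (chromosome 16, 23965052 to 23988852), had 44.3, 51.6 and 82.1 CPM in P16 mice at 0 h, against 13.3, 14.8 and 10.8 in GFP mice. At 48 h Bcl6 had 20.1, 5.67 and 6.91 CPM in P16 mice, against 3.94, 1.91 and 2.05 in GFP mice. Levels were lower after hepatectomy in both arms, and the P16 libraries stayed above the GFP libraries of their time. Bcl6 was 4.33-fold higher (log2 fold change 2.11, SE 0.33, adjusted p = 0.0158), with effects of 2.19 at 0 h and 2.01 at 48 h, and the call was lost without GFP replicate 3 at 48 h (adjusted p = 0.0569).

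Gadd45a, a growth arrest gene induced by DNA damage (chromosome 6, 67035096 to 67037457), had 80.3, 17.9 and 33.8 CPM in P16 mice at 0 h, against 13.03, 9.49 and 10.03 in GFP mice. At 48 h Gadd45a had 38.4, 59.2 and 40.1 CPM in P16 mice, against 16.7, 10.99 and 12.4 in GFP mice. The groups did not overlap, and P16 replicate 1 was far above the other P16 mice at 0 h. It was 3.71-fold higher (log2 fold change 1.89, SE 0.32, adjusted p = 0.0225). The call was lost without GFP replicate 2 at 0 h, P16 replicate 2 at 48 h or any GFP library at 48 h (adjusted p 0.0508 to 0.0756). Gadd45a was the only called gene among 21 tested p53 targets, whose median log2 fold change was -0.20, against -0.005 for all genes.

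Fabp5, a fatty acid carrier of many epithelia, averaged 62.9 ± 3.09 CPM in P16 mice and 23.2 ± 6.79 CPM in GFP mice at 0 h, and 228 ± 164 CPM in P16 mice against 60.9 ± 11.02 CPM in GFP mice at 48 h (SD, n = 3 each). It was 3.21-fold higher (adjusted p = 0.0348), with P16 replicate 2 at 48 h highest at 411 CPM. Its call was lost without P16 replicate 1 or 3 or GFP replicate 2 at 0 h and without any GFP library at 48 h (adjusted p 0.0552 to 0.0959), and with offsets for length and GC (0.0530). A further gene with a large rise, chosen after its values were seen, was Rgs16, which shortens G protein signalling. Rgs16 was 7.30-fold higher over both times (adjusted p = 0.0149), with log2 fold changes of 3.76 at 0 h and 1.78 at 48 h. Its call was lost only with GFP replicate 2 at 0 h left out together with P16 replicate 2 at 48 h (0.0532), and it was not tested under the filter of at least 5 CPM.

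**Figure D2:**
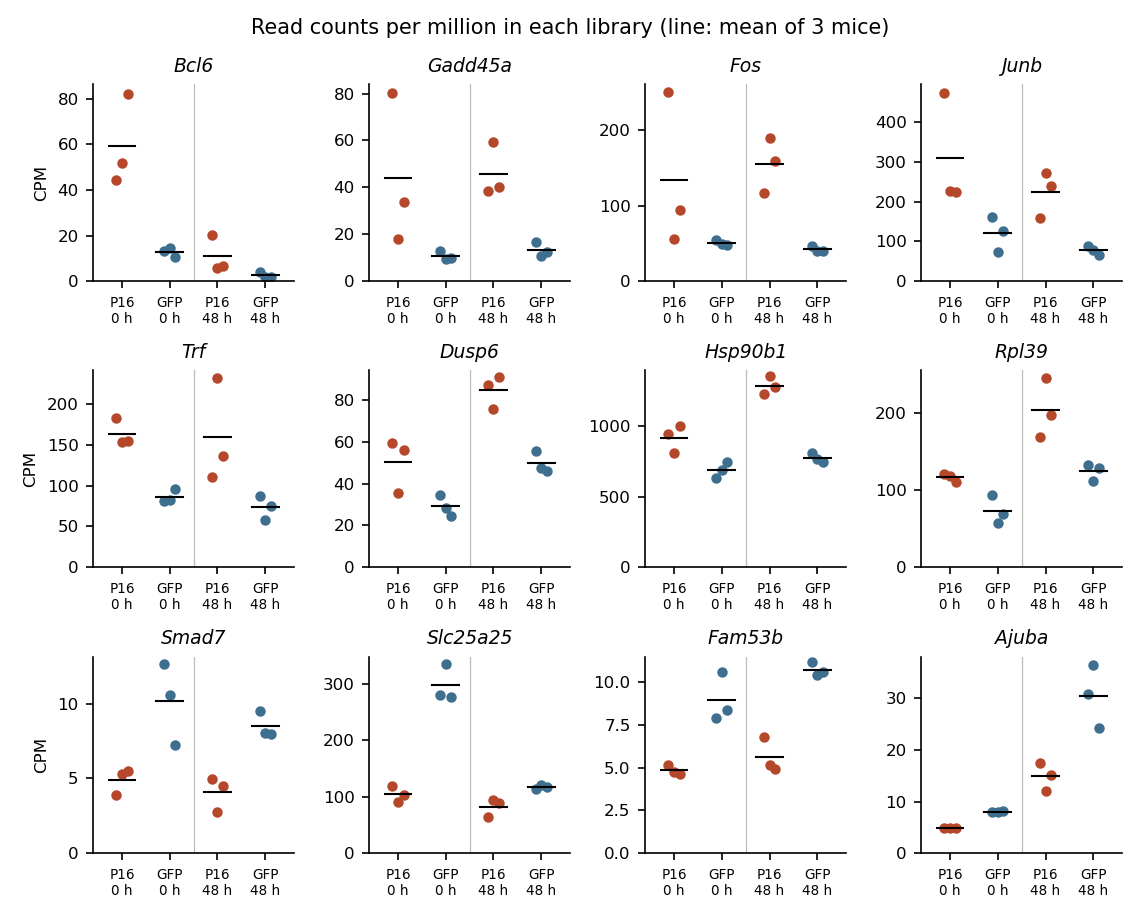
Normalised counts in CPM (vertical axes, from 0) of 12 called genes in each library, with P16 mice in red, GFP mice in blue, 1 point per mouse and a line at the mean of 3 mice. In every panel the P16 and GFP points of a time do not overlap. Trf, Dusp6, Hsp90b1 and Rpl39 are higher in P16 mice by a similar factor at both times, and Smad7, Fam53b and Ajuba lower, while the gap of Slc25a25 is wider at 0 h.

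Immediate early genes encode transcription factors that cells induce within minutes of a stimulus. Fos, a subunit of the AP-1 factor (chromosome 12, 85473890 to 85477273), had 250, 56.0 and 94.7 CPM in P16 mice at 0 h, against 54.1, 49.3 and 48.6 in GFP mice. At 48 h Fos had 116, 190 and 158 CPM in P16 mice, against 47.2, 39.6 and 40.4 in GFP mice. At 0 h the lowest P16 library lay just above the highest GFP library, and at 48 h the gap was wide. Fos was 3.10-fold higher over both times (log2 fold change 1.63, SE 0.32, adjusted p = 0.0380). Its call was lost without P16 replicate 1 or GFP replicate 2 or 3 at 0 h, without P16 replicate 2 or 3 at 48 h and without any GFP library at 48 h (adjusted p 0.0517 to 0.105).

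Junb, an AP-1 partner of Fos (chromosome 8, 84974484 to 84978718), had 474, 227 and 225 CPM in P16 mice at 0 h, against 161, 73.2 and 127 in GFP mice. At 48 h Junb had 160, 272 and 239 CPM in P16 mice, against 88.1, 79.8 and 64.8 in GFP mice. Junb was 2.72-fold higher (log2 fold change 1.44, SE 0.24, adjusted p = 0.0192), with effects of 1.36 at 0 h and 1.53 at 48 h. That call was lost without P16 replicate 2 or any GFP library at 48 h (adjusted p 0.0508 to 0.0595). Exons of Junb overlap those of Prdx2 on the other strand, and the strand setting of the counts is not given.

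Of 22 tested immediate early genes 3 were called higher (Fos, Junb and Ier2, 13.6%) and 0 lower, against 1.7% and 0.596% of all genes. Their median log2 fold change was 0.80 (1.04 at 0 h and 0.66 at 48 h), against -0.005 for all genes. Ier2 was 2.23-fold higher (adjusted p = 0.0468), with overlapping groups at 0 h. Its call was lost without P16 replicate 1 or 3 or GFP replicate 2 or 3 at 0 h, and without P16 replicate 2 or 3 or any GFP library at 48 h (adjusted p 0.0573 to 0.130). Values above 0 at both times were found in 15 of the 22, and in 3450 of all 12257 genes. An unadjusted p under 0.05 was found in 12 of the 22, and in 17% of all genes. Jun (log2 fold change 0.81, adjusted p = 0.0731), Egr1 (1.49, 0.178) and Atf3 (2.17, 0.144) were not called. The count of 3 became 0 without P16 replicate 2 at 48 h, 0 without any one GFP library at 48 h, and 1 without P16 replicate 3 at 48 h or GFP replicate 2 or 3 at 0 h. The list median ranged from 0.43 to 0.91 over these fits and was lowest without P16 replicate 1 at 0 h.

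Promoter sequences are shown for 3 of the called genes that hold TGACGT, the core of the cAMP response element, within 250 bases before a RefSeq start site (GRCm38.p6), since Bcl6 and Fos, among the largest rises, and Slc25a25, which fell more than 2-fold, share it; the motif was chosen with these values known. Bases are given 5′ to 3′ on the gene's strand, with each match on either strand in capitals. Bcl6 has 2 listed start sites and Slc25a25 has 3, and for each the first window that holds the motif is shown. Bases just after the start site used for Slc25a25 were not found in its annotated transcripts (GENCODE). The matches of Slc25a25 on both strands overlap to form TGACGTCA.
Fos, plus strand, chr12:85473640-85473889: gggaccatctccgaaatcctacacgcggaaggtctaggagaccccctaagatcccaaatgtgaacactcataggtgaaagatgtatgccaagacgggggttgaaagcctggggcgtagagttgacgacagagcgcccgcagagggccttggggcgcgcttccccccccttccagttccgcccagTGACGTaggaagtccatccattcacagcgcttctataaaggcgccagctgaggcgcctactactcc
Bcl6, minus strand, chr16:23988853-23989102: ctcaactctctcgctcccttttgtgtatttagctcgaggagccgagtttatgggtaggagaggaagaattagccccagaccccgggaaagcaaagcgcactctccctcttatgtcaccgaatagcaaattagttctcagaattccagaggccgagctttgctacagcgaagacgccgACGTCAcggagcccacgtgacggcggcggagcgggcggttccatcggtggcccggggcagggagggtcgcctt
Slc25a25, minus strand, chr2:32424067-32424316: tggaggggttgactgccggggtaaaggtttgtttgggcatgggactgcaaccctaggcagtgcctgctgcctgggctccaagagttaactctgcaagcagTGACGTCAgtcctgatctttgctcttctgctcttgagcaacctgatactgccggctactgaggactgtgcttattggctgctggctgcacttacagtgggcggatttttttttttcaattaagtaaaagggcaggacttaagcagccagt
The match began 66 bases before the start site in Fos and 73 in Bcl6, and 150 in Slc25a25. TGACGT stood in 6.47% of all 32851 windows. Of 1095 tested genes with a match, 19 were called higher (1.74%) and 6 lower (0.548%), shares close to the 1.7% and 0.596% of all genes tested.

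Genes of signalling and of the cytoskeleton were among the falls of similar size at both times. Smad7, the inhibitory Smad of the TGF-beta pathway (chromosome 18, 75367529 to 75395935), had 3.89, 5.29 and 5.52 CPM in P16 mice at 0 h, against 12.7, 10.6 and 7.26 in GFP mice. At 48 h Smad7 had 4.95, 2.77 and 4.53 CPM in P16 mice, against 9.48, 8.03 and 7.97 in GFP mice. No library of either arm reached into the other, and the log2 fold change was -1.05 at 0 h and -1.05 at 48 h (pooled -1.05, SE 0.18, adjusted p = 0.0122; 95% interval of the difference -0.76 to 0.76).

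Ajuba, a LIM domain scaffold that binds kinases of the Hippo pathway (chromosome 14, 54567472 to 54577558), had 4.92, 4.86 and 4.96 CPM in P16 mice at 0 h, against 7.91, 8.04 and 8.23 in GFP mice. At 48 h Ajuba had 17.6, 12.1 and 15.2 CPM in P16 mice, against 30.9, 36.5 and 24.3 in GFP mice. Levels were higher after hepatectomy in both arms, and the P16 libraries lay below the GFP libraries of their time. Ajuba fell by 0.89 on the log2 scale, or 1.85-fold (SE 0.13, adjusted p = 0.0115).

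Fam53b (chromosome 7, 132712082 to 132813886) had 5.16, 4.74 and 4.60 CPM in P16 mice at 0 h, against 7.91, 10.6 and 8.38 in GFP mice. At 48 h Fam53b had 6.76, 5.18 and 4.90 CPM in P16 mice, against 11.1, 10.4 and 10.6 in GFP mice. It was 1.88-fold lower in the P16 arm (log2 fold change -0.91, SE 0.14, adjusted p = 0.0115), with effects of -0.89 at 0 h and -0.93 at 48 h. Hunk, a serine/threonine kinase of the AMPK-related family, was 2.02-fold lower (adjusted p = 0.0122) and averaged 2.38 ± 0.443 CPM in P16 mice and 4.33 ± 0.501 CPM in GFP mice at 0 h (SD, n = 3 each). Wdr6, a WD repeat protein, was 1.80-fold lower (adjusted p = 0.0157), and Ripor1 1.64-fold lower (adjusted p = 0.0152). Abhd2, a lipid hydrolase, was 1.63-fold lower (adjusted p = 0.0149), with effects of -0.40 at 0 h and -0.98 at 48 h whose difference had an unadjusted p of 0.0147.

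Smad7, Ajuba, Fam53b, Hunk, Wdr6, Ripor1 and Abhd2 kept their calls under all 21 alternatives. So did Cirbp, a cold-inducible RNA-binding protein (1.58-fold lower, adjusted p = 0.0149), and Myh10, a nonmuscle myosin heavy chain (1.56-fold lower, adjusted p = 0.0122), both named after their values were seen. Adora1, the adenosine A1 receptor, was 1.65-fold lower (adjusted p = 0.0231), a call lost without P16 replicate 2 or 3 or any GFP library at 48 h (adjusted p 0.0518 to 0.0707). Klf16, a zinc finger factor, was 1.62-fold lower (adjusted p = 0.0476; -0.92 at 0 h and -0.51 at 48 h), a call lost without any single library except GFP replicate 1 at 0 h (adjusted p 0.0616 to 0.113). A larger fall at a low level, named after its values were seen, was that of Chrm3, a muscarinic receptor, with 0.0608 to 0.600 CPM in P16 mice, against 0.979 to 3.54 CPM in GFP mice (log2 fold change -2.35, adjusted p = 0.0122).

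Slc25a25, the mitochondrial carrier of adenine nucleotides whose promoter is shown above, fell at both times by unequal amounts. It had 119, 91.5 and 102 CPM in P16 mice at 0 h, against 280, 335 and 277 in GFP mice. At 48 h Slc25a25 had 63.7, 94.1 and 88.8 CPM in P16 mice, against 113, 120 and 117 in GFP mice. The P16 libraries lay below the GFP libraries at each time, and the level of GFP mice was itself lower at 48 h. The log2 fold change was -1.01 over both times (SE 0.17, adjusted p = 0.0149), -1.51 at 0 h and -0.51 at 48 h. The difference between these effects was 1.00 (95% interval 0.57 to 1.44) with an adjusted p of 0.0557 for the interaction. Its exons overlap those of Naif1 on the other strand.

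In all, 23 called genes had an unadjusted interaction p under 0.05 (11.8% of all genes had one), and 0.0557 was the lowest adjusted interaction p among the 281. The effect was larger at 48 h in 17 of the 23 and at 0 h in 6. After Slc25a25 the lowest p were those of Ddt, D-dopachrome tautomerase, and of Pdia4, Nme6 and Calr. Ddt had effects of 1.58 at 0 h and 0.46 at 48 h (edgeR, adjusted p = 0.119 for the interaction). Calr and Pdia4, both of the endoplasmic reticulum, had effects of 0.23 and 0.19 at 0 h and of 0.92 for each at 48 h (edgeR, adjusted p = 0.170 and 0.145 for the interaction). Nme6, a nucleoside diphosphate kinase, had 0.20 at 0 h and 0.93 at 48 h (edgeR, adjusted p = 0.165 for the interaction). In the pooled test Ddt lost its call without P16 replicate 2 at 48 h (0.0562), and Pdia4 without P16 replicate 1 or 3 at 0 h or any library at 48 h (0.0595 to 0.117). Nme6 lost it without P16 replicate 1 at 0 h or any library at 48 h (0.0547 to 0.105).

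Genes of the cytosolic ribosome formed the largest group of shared rises. Of 79 ribosomal protein genes tested, 28 were called higher (35.4%) and 0 lower, against 1.7% and 0.596% of all genes. Of these 28, 25 had no overlap at either time, and 24 of the 25 had effects within 2-fold of each other. Among all 281 called genes 193 had no overlap, and 160 of the 193 had effects within 2-fold of each other. The list median was 0.37 over both times, 0.27 at 0 h and 0.46 at 48 h, and 72 of 79 members lay above 0 at both times, as did 3450 of all 12257 genes. Many of these genes have near-identical pseudogene copies, so values of single members are uncertain.

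Rpl39, a small protein of the large subunit (chromosome X, 37082520 to 37085402), had 122, 119 and 111 CPM in P16 mice at 0 h, against 94.1, 57.7 and 68.9 in GFP mice. At 48 h Rpl39 had 170, 246 and 197 CPM in P16 mice, against 133, 112 and 129 in GFP mice. It was higher in every P16 library than in any GFP library of its time, with effects of 0.67 at 0 h and 0.71 at 48 h (pooled 0.69, SE 0.12, adjusted p = 0.0122). Rps29 was 1.68-fold higher (adjusted p = 0.0177) and Rpl38 1.64-fold (0.0149), and both kept their calls under all 21 alternatives. Rpl35 was 1.73-fold higher (adjusted p = 0.0413), a call lost without any single library except GFP replicate 1 at 0 h and P16 replicate 1 at 48 h (0.0529 to 0.111). GFP replicate 2 at 0 h was the lowest library for Rpl39, Rps29, Rpl38 and Rpl35, and P16 replicate 2 at 48 h the highest. With both of those libraries left out, an alternative added after the data were seen, 15 of the 79 were called and the median was 0.25.

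Calls were also frequent among nuclear genes of the mitochondrial respiratory chain and ATP synthase. Of 73 tested, 21 were called higher (28.8%) and 0 lower, against 1.7% and 0.596% of all genes, with 0 called at 0 h alone and 4 at 48 h alone. The list had a median of 0.33 (0.27 at 0 h and 0.38 at 48 h). No overlap at either time was found in 14 of the 21, a share close to the 193 of all 281 called genes. Atp5l was 1.64-fold higher (adjusted p = 0.0349), Atp5k 1.60-fold (0.0348) and Atp5e 1.53-fold (0.0306), all small subunits of ATP synthase. Uqcr11, of complex III, was 1.49-fold higher (adjusted p = 0.0273). Atp5e lost its call without P16 replicate 2 or any GFP library at 48 h (0.0526 to 0.0807), and Uqcr11 without these or P16 replicate 3 at 48 h (0.0526 to 0.0798). Atp5l and Atp5k lost it without P16 replicate 1 or GFP replicate 3 at 0 h and without P16 or GFP replicate 2 or 3 at 48 h, and Atp5k also without P16 replicate 2 or 3 at 0 h (0.0549 to 0.101 for both genes). The count was more fragile than that of the ribosome. It became 0 without GFP replicate 2 or 3 at 48 h, 2 without GFP replicate 1, and 1 or 5 when P16 replicate 2 or 3 was left out, all at 48 h, while the median stayed between 0.27 and 0.40. At 0 h it was 8 or 11 without P16 replicate 1 or 2, 12 without GFP replicate 3 and 32 without GFP replicate 1. When GFP replicate 2 at 0 h was left out together with P16 replicate 2 at 48 h it was 4, with a median of 0.19. For the ribosomal list the counts without 1 library were 8 to 42, lowest without GFP replicate 1 or 2 at 48 h (8 each), 9 without GFP replicate 3, 13 and 14 without P16 replicate 2 and 3 at 48 h, 18 without P16 replicate 2 at 0 h, and highest without GFP replicate 1 at 0 h. The 37 proteasome genes, by contrast, gave 1 call (Psmb6, 1.31-fold higher, adjusted p = 0.0394) and a median of 0.15. Psmb6 lost its call without any single library except GFP replicate 1 at 0 h and P16 replicate 1 at 48 h (0.0507 to 0.102).

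**Figure D3:**
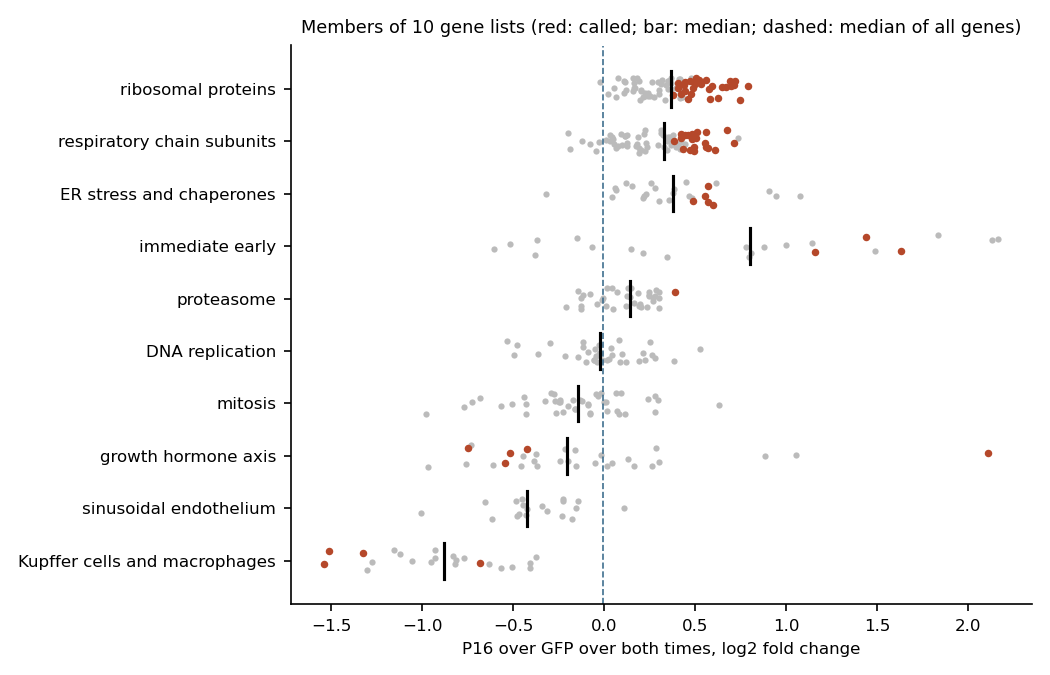
Log2 fold change of P16 over GFP over both times (horizontal axis) for the tested members of 10 gene lists, 1 point per gene, with called genes in red, a bar at the list's median and a dashed line at the median of all genes (-0.005). Ribosomal protein, respiratory chain and endoplasmic reticulum lists lie to the right with medians of 0.37, 0.33 and 0.38. All 22 macrophage markers lie left of 0, with a median of -0.88.

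The called genes differed from the rest in transcript length, which the selection did not use. The median transcript length was 908 bases for the 208 higher genes, 2288 for the 73 lower genes and 2104 for all genes. Their levels differed too, with a median of 65.1 CPM for the higher genes, 13.7 for the lower genes and 13.3 for all genes. Transcripts under 1000 bases made up 54.8% of the higher genes (114 of 208), 13.7% of the lower genes and 19.1% of all genes. Ribosomal protein and respiratory chain genes accounted for 44 of the 114. Outside both lists 159 genes were called higher, of which 70 (44%) were under 1000 bases. The share called higher was 12.9% below 500 bases, 4.02% from 500 to under 1000, 1.37% from 1000 to under 2000, 0.909% from 2000 to under 4000 and 0.338% from 4000. Without both lists these shares were 4.46, 3.02, 1.29, 0.865 and 0.338%. The shares by length were not adjusted for the level of the genes. Reads in genes of under 1000 bases made up 27.0, 31.1 and 28.6% of P16 libraries at 0 h, against 28.3, 26.9 and 27.6% of GFP libraries, and 27.8, 29.8 and 28.2% of P16 libraries at 48 h, against 27.3, 27.97 and 27.6% of GFP libraries. These shares overlapped between the arms at both times. With offsets for transcript length and GC content, added after the data were seen, 80 genes were called higher and 40 lower, 113 of them among the 281. Ribosomal protein calls were then 12 (median 0.26) and respiratory chain calls 1 (median 0.21). Of the called genes named in the text, Fabp5, Fos, Ier2, Adora1, Klf16, Pdia4, Nme6, Ddit3, Mlxipl, Etfb, Cyp2c38, Ephx1, Cyp4a12b, C6, Rpl35, Atp5l, Atp5k, Atp5e, Uqcr11 and Psmb6 lost their calls with the offsets (adjusted p 0.0528 to 0.109). Whether fragment length or RNA quality had a part in these rises was not tested.

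**Figure D4:**
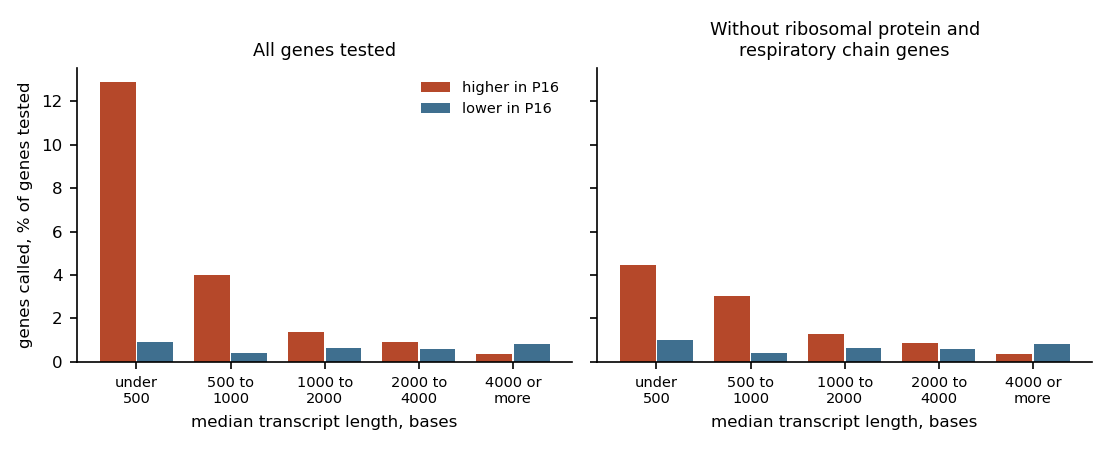
Share of tested genes called higher (red) and lower (blue) in P16 mice, in percent (vertical axis, from 0), by median transcript length in bases (horizontal axis), for all genes and without the ribosomal protein and respiratory chain lists. The share called higher is 12.9% below 500 bases and 0.338% from 4000 bases, and it falls with length in both panels (4.46% and 0.338% without the lists). The share called lower stays between 0.378% and 0.99%.

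Among chaperones and folding enzymes of the endoplasmic reticulum, 5 of 27 tested were called higher (Sec61b, Hsp90b1, Calr, Pdia4 and Pdia3, 18.5%) and 0 lower, against 1.7% and 0.596% of all genes. Tested alone, 0 h gave 0 calls and 48 h gave 10 higher. The list median was 0.38 over both times, 0.16 at 0 h and 0.71 at 48 h. At both times 19 members lay above 0, as did 3450 of all 12257 genes. The promoters of Hsp90b1 and Calr hold the letters CCAAT and CCACG with 9 bases of any kind between them, the endoplasmic reticulum stress element bound by NF-Y and the factor ATF6. They are shown for the 250 bases before the RefSeq start site (GRCm38.p6), 5′ to 3′ on the gene's strand, with the element on either strand in capitals.
Hsp90b1, minus strand, chr10:86705445-86705694: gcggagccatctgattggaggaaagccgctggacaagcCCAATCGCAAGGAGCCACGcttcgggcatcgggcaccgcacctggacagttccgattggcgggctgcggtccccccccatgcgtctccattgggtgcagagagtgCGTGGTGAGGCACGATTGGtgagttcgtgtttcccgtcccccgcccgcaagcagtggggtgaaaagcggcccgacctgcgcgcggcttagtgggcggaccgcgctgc
Calr, minus strand, chr8:84846932-84847181: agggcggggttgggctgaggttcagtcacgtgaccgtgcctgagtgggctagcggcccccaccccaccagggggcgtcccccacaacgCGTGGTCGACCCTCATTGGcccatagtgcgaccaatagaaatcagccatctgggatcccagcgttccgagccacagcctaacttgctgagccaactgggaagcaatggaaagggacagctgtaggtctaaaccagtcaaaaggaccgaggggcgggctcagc
Hsp90b1 held 2 elements, 212 and 107 bases before the start site and on opposite strands, and Calr 1 element, 162 bases before it. The element stood in 0.113% of all 32851 windows. Of 16 tested genes with it, 15 had a log2 fold change above 0, against 6016 of all 12257 genes, with a median of 0.45 over both times, 0.19 at 0 h and 0.58 at 48 h. Of the 16, Hsp90b1 and Calr were called (12.5%). Calr, Canx, Creld2, Derl3, Dnajc3, Hsp90b1, Hspa5, Pdia6 and Syvn1 are also members of the list above, of which 26 of 27 lay above 0. The values of the 16 are therefore not separate from those of the list. Hspa5, the chaperone BiP, stood at 0.49 (adjusted p = 0.127) and the disulfide isomerase gene Pdia6 at 0.36 (0.0888).

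Hsp90b1, the chaperone GRP94 (chromosome 10, 86690209 to 86705509), had 942, 808 and 999 CPM in P16 mice at 0 h, against 631, 689 and 747 in GFP mice. At 48 h Hsp90b1 had 1229, 1358 and 1276 CPM in P16 mice, against 808, 769 and 743 in GFP mice. The groups did not overlap at either time, and the gap was wider at 48 h. Hsp90b1 was 1.49-fold higher (log2 fold change 0.57, SE 0.10, adjusted p = 0.0122), with effects of 0.41 at 0 h and 0.74 at 48 h (95% interval of the difference -0.06 to 0.71), and kept its call under all 21 alternatives. Calr, the calcium-binding chaperone calreticulin, had 1119, 1210 and 1292 CPM in P16 mice at 0 h, against 991, 887 and 1218 in GFP mice, which overlapped. At 48 h Calr had 1130, 1275 and 985 CPM in P16 mice, against 610, 568 and 616 in GFP mice, which did not. Its pooled effect was 0.57 (adjusted p = 0.0348), a call lost without P16 replicate 3 at 0 h or any single library at 48 h (adjusted p 0.0504 to 0.105). The list's count of 5 ranged from 1 (without any one GFP library at 48 h) to 10 (without P16 replicate 2 at 0 h), with 2 without P16 replicate 2 or 3 at 48 h, 3 without P16 replicate 1 at 48 h or P16 replicate 3 at 0 h and 8 without GFP replicate 2 at 0 h. Ddit3, the stress factor CHOP, was 1.98-fold higher (adjusted p = 0.0493), with overlapping groups at 0 h, and was the only call among 18 integrated stress response genes. It lost its call without P16 replicate 1 or GFP replicate 1 or 3 at 0 h or any library at 48 h (0.0659 to 0.129). Sec61b lost it without any GFP library at 48 h (0.0589 to 0.0658), and Pdia3 without these or P16 replicate 2 or 3 at 48 h (0.0594 to 0.1001).

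No cell cycle gene list gave a pooled call, apart from Cdkn2a itself. Of 36 DNA replication genes, 44 mitosis genes and 23 G1 cyclins, CDKs and pocket proteins, 0 were called by edgeR, with medians of -0.02, -0.14 and -0.20. Since 2.29% of all genes were called, 0 calls in a list of such a size is close to the share of all genes. At an unadjusted p under 0.05, found in 17% of all genes, these lists had 3, 5 and 5 genes. DESeq2 called 0 of each, and limma-voom called 0, 1 and 1, both lower. Mki67, the proliferation marker, had 0.0794, 0.0608 and 0.142 CPM in P16 mice at 0 h, against 0.377, 0.447 and 0.524 in GFP mice. These were only 1, 1 and 2 reads against 5, 8 and 7 reads (log2 fold change -2.19 at 0 h, edgeR, adjusted p = 0.116). At 48 h Mki67 had 87.1, 79.3 and 111 CPM in P16 mice, against 98.8, 88.0 and 78.9 in GFP mice, which overlapped. The pooled log2 fold change of Mki67 was -0.09 (SE 0.18, adjusted p = 0.854) and changed sign between settings. Ccnd1, the cyclin D1 partner of CDK4 and CDK6, stood at -0.62 (SE 0.19, adjusted p = 0.0944), with -0.06 at 0 h and -0.91 at 48 h. Over both times Ccnd1 was called lower by limma-voom (0.0152), without P16 replicate 2 at 0 h (0.0315) and without GFP replicate 2 at 0 h (0.0350).

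The other senescence and target genes followed gave no call over both times. Cdkn1a, the p21 inhibitor, stood at -0.76 (SE 0.47, adjusted p = 0.461). Lmnb1, whose product is lost from the nuclear lamina of senescent cells, stood at -0.16 (adjusted p = 0.789), with 0.62 at 0 h and -0.70 at 48 h. Thbd, thrombomodulin, stood at -0.42 (adjusted p = 0.734), with -1.99 at 0 h (edgeR, adjusted p = 0.208) and 0.52 at 48 h, a difference of 2.53 (95% interval 0.76 to 4.29, adjusted p = 0.221). F2r, the thrombin receptor PAR1, stood at -0.61 (adjusted p = 0.166, and 0.0115 without P16 replicate 2 at 0 h). Of 17 genes of the senescence secretory programme 0 were called by edgeR, with 4 at an unadjusted p under 0.05, 2 called higher by DESeq2 and 2 by limma-voom, and a median of -0.11. Among all genes 2.29% were called by edgeR over both times, and 17% had an unadjusted p under 0.05. Acute phase genes had opposite medians at the times, -0.54 at 0 h and 1.17 at 48 h, and 0 of 30 were called over both by edgeR (8 at an unadjusted p under 0.05, 2 called by DESeq2 and 1 by limma-voom). Each time alone gave 0 calls at 0 h and 10 higher at 48 h. At 0 h the list summed to 27915 to 33211 CPM in P16 mice, against 32453, 72115 and 37523 CPM in GFP mice. At 48 h it summed to 67892, 122150 and 51757 CPM in P16 mice, against 34231 to 37209 CPM in GFP mice.

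Among the macrophage markers, Cd74 and Slc40a1 were called lower in P16 mice without overlap at either time, and H2-Aa and H2-Ab1 were called lower with overlap at 48 h. Cd74, the invariant chain of MHC class II (chromosome 18, 60803848 to 60812652), had 4.69, 7.66 and 4.39 CPM in P16 mice at 0 h, against 10.3, 15.5 and 24.7 in GFP mice. At 48 h Cd74 had 1.85, 1.73 and 1.40 CPM in P16 mice, against 3.94, 3.21 and 2.75 in GFP mice. No P16 library reached a GFP library of its time, and the log2 fold change was -1.33 (SE 0.23, adjusted p = 0.0122), kept under all 21 alternatives.

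The MHC class II chains H2-Aa and H2-Ab1 fell 2.91-fold and 2.86-fold (adjusted p = 0.0329 and 0.0333). H2-Eb1, the beta chain of the other class II molecule, was not called (log2 fold change -1.12, adjusted p = 0.213), with -0.33 at 48 h. H2-Aa lost its call without any one P16 library or GFP replicate 3 at 0 h, without P16 replicate 2 or 3 and without any GFP library at 48 h (adjusted p 0.0527 to 0.0882). H2-Ab1 lost it without P16 replicate 1 or 3 or GFP replicate 3 at 0 h, and without P16 replicate 2 or 3 or GFP replicate 1 or 2 at 48 h (adjusted p 0.0560 to 0.0891). Slc40a1, the iron exporter ferroportin of macrophages and hepatocytes, fell 1.60-fold (adjusted p = 0.0217), with effects of -0.92 at 0 h and -0.45 at 48 h. Its call was lost without P16 replicate 2 or GFP replicate 1 at 48 h (adjusted p = 0.0572 and 0.0587).

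Of the 22 macrophage markers, Kupffer cells included, Cd74, H2-Aa, H2-Ab1 and Slc40a1 were called lower (18.2%) and 0 higher, against 0.596% and 1.7% of all genes. All 22 had a pooled log2 fold change below 0 (median -0.88), with 14 below 0 at both times and medians of -1.78 at 0 h and -0.09 at 48 h. Of all 12257 genes, 6016 had a pooled value above 0 and 3412 lay below 0 at both times. The list summed to 88.9 to 120 CPM in P16 mice, against 143 to 374 CPM in GFP mice at 0 h, and to 166 to 191 CPM in P16 mice, against 164 to 243 CPM in GFP mice at 48 h. None of the 22 was at 0 reads in any library. The defining markers Adgre1 (-1.28, adjusted p = 0.301), Clec4f (-0.95, 0.302) and C1qa (-0.63, 0.456) were not called, and C1qa stood at 0.11 at 48 h. GFP replicate 2 at 0 h, which held 374 CPM of the list, was the highest library, and without it the list median was -0.48 while 4 genes were called. The count was 2 without P16 replicate 1 or 3 or GFP replicate 3 at 0 h and without P16 replicate 3 or GFP replicate 2 at 48 h, and 1 without P16 replicate 2 or GFP replicate 1 at 48 h. Of 19 sinusoidal endothelial markers 0 were called by edgeR (1 by DESeq2 and 0 by limma-voom), with a median of -0.42. An unadjusted p under 0.05, found in 17% of all genes, was found in 4 of these 19 markers. They summed to 109 to 129 CPM in P16 mice, against 149 to 277 CPM in GFP mice at 0 h, and overlapped at 48 h. Fewer cells of a type and less RNA per cell cannot be told apart in such bulk libraries, and the part of other cells in the falls of Cd74, H2-Aa, H2-Ab1 and Slc40a1 was not tested.

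**Figure D5:**
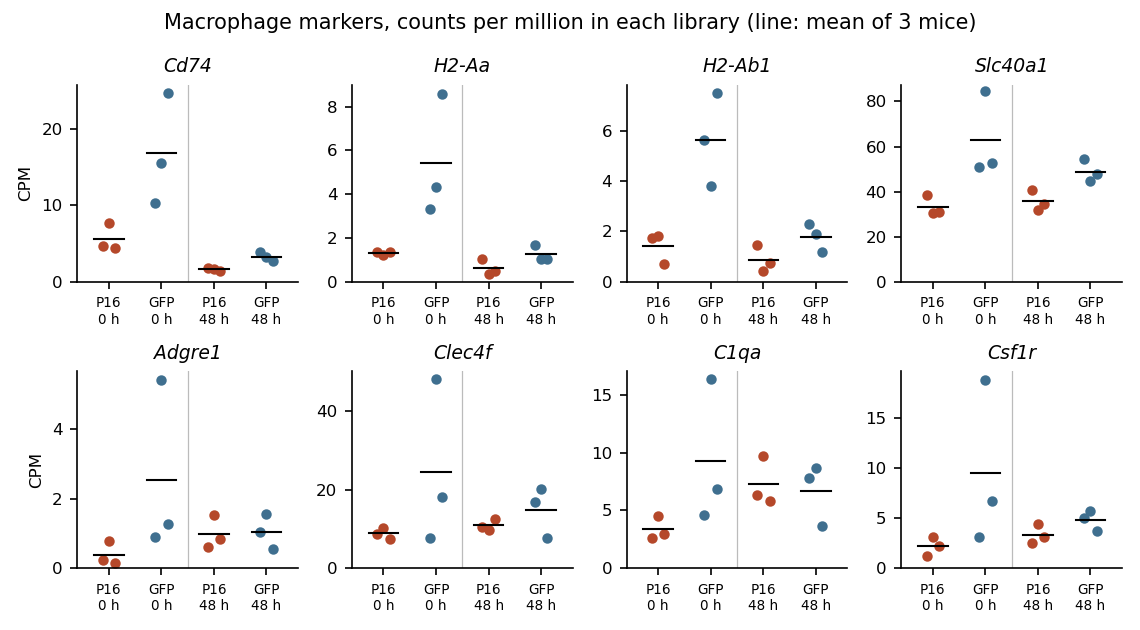
Normalised counts in CPM (vertical axes, from 0) of 8 macrophage markers in each library, with P16 mice in red, GFP mice in blue, 1 point per mouse and a line at the mean of 3 mice. Cd74 and Slc40a1 are lower in P16 mice at both times without overlap. Adgre1, Clec4f, C1qa and Csf1r have their highest value in GFP replicate 2 at 0 h and overlap between the arms at 48 h.

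Lists of metabolic and secretory genes of the hepatocyte differed in their share of pooled calls. Of 30 genes of the growth hormone axis and of sex-biased expression, Bcl6 was called higher and Cyp4a12b, Susd4, C6 and Mup20 lower (16.7% in all, against 2.29% of all genes). The list median was -0.21 over both times, 0.04 at 0 h and -0.51 at 48 h. Cyp4a12b, a male-biased fatty acid hydroxylase, was 1.68-fold lower (adjusted p = 0.0436), Susd4 1.46-fold lower (0.0402) and the complement gene C6 1.43-fold lower (0.0409), each with overlapping groups at 0 h. These 3 lost their calls without P16 replicate 3 or GFP replicate 3 at 0 h, P16 replicate 2 or 3 or any GFP library at 48 h (0.0573 to 0.107). Calls were also lost for Cyp4a12b and C6 without P16 replicate 1 at 0 h, for Susd4 and C6 without GFP replicate 2 at 0 h, and for Cyp4a12b and Susd4 without P16 replicate 1 at 48 h. Mup20, a major urinary protein named after its values were seen, had a log2 fold change of -0.42 (adjusted p = 0.0409) and no overlap at either time. Mup20 lost its call without any single library except P16 replicate 2 and GFP replicate 2 at 0 h (0.0501 to 0.114). Cyp4a12b and Mup20 belong to families with near-identical members and are uncertain. Of 28 genes of the feeding and insulin response, Mlxipl, the glucose-sensing factor ChREBP, was called higher (1.65-fold, adjusted p = 0.0468) and Slc25a25 and Got1 lower (10.7% in all). Mlxipl overlapped at both times and lost its call without any single library except P16 replicate 2 at 0 h and P16 replicate 1 at 48 h (0.0681 to 0.128). Got1, the cytosolic aspartate aminotransferase, was 1.59-fold lower (adjusted p = 0.0158), with effects of -0.94 at 0 h and -0.39 at 48 h, and lost its call when GFP replicate 2 at 0 h was left out together with P16 replicate 2 at 48 h (0.0594).

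Of 31 cytochromes P450 of families 1 to 3, Cyp2c40 (3.76-fold, adjusted p = 0.0122) and Cyp2c38 (1.53-fold, 0.0476) were called higher (6.45%, against 1.7% of all genes). Cyp2c40 kept its call under all 21 alternatives but overlapped at 0 h, where P16 replicate 1 had 5.004 CPM and GFP replicate 3 had 5.012 CPM. Both belong to a family of near-identical genes and are uncertain. Cyp2c38 lost its call without P16 replicate 1 or 3 or GFP replicate 3 at 0 h, and without P16 replicate 2 or 3 or any GFP library at 48 h (0.0634 to 0.118). Ephx1, the microsomal epoxide hydrolase, was 1.39-fold lower (adjusted p = 0.0445) and the only call among 31 conjugation and NRF2 target genes. It lost its call without any single library except GFP replicate 1 at 0 h and P16 replicate 3 at 48 h (0.0506 to 0.109). Etfb, an electron carrier of fatty acid oxidation, was 2.25-fold higher (adjusted p = 0.0329), with effects of 1.70 at 0 h and 0.67 at 48 h. Its call was lost without P16 replicate 3 or GFP replicate 2 or 3 at 0 h and without P16 or GFP replicate 2 or 3 at 48 h (0.0514 to 0.0956). Lists of cholesterol, bile acid, coagulation, glucose and clock genes gave 0 calls by edgeR, with medians between -0.02 and 0.14, and 1 to 7 members of each had an unadjusted p under 0.05. Over all genes 2.29% were called and 17% had such a p, so 0 calls in lists of 20 to 27 members is close to the share of all genes. DESeq2 called 1 cholesterol and 1 bile acid gene, limma-voom 1 cholesterol gene.

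The number of called genes depended on single libraries. With all libraries it was 281, and it was 57, 69 and 69 without a GFP library at 48 h (replicates 3, 1 and 2), 74 and 103 without P16 replicate 2 and 3 at 48 h, and 132, 169 and 171 without P16 replicate 1, P16 replicate 3 and GFP replicate 3 at 0 h. Without GFP replicate 1 at 0 h it was 391. No called gene changed direction in any of the 21 alternatives, 49 kept their call without any 1 of the 12 libraries, and 41 kept it under all 21 alternatives. Of those 41, 29 were higher and 12 lower, 35 had no overlap at either time and 30 had effects within 2-fold of each other. Ribosomal protein genes made up 8 of them and respiratory chain genes of the list 0. With GFP replicate 2 at 0 h and P16 replicate 2 at 48 h left out together, calls were also lost for Gadd45a, Fos, Junb, Ier2, Adora1, Klf16, Ddt, Pdia4, Nme6, Calr, Pdia3, Ddit3, Mlxipl, Etfb, Cyp2c38, Ephx1, Susd4, C6, Rpl35, Atp5l, Atp5k, Psmb6, H2-Aa and H2-Ab1 (adjusted p 0.0503 to 0.267).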

How the data were processed

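Poly(A) RNA of hepatocytes from 12 mice was sequenced, with 3 mice in each of 4 groups. The authors deposited a table of raw read counts per gene (31053 gene rows), for which the submitters' processing notes list HTSeq, STAR 2.5.0c, Trim Galore, Picard, SAMtools and the mm10 build. No source used here states the strand setting or which annotation release was counted. Totals were 14617049 to 25409451 reads in genes per library, while 3.62 to 9.80% of reads had no feature and 4.87 to 8.80% were ambiguous, and these rows stayed out of library sizes and tests. Blank (173) and date-like (27) symbols were restored from the gene identifiers.

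Genes with enough reads by filterByExpr (12257) were scaled by TMM and tested with edgeR 4.0.16 (R 4.3.3), by robust quasi-likelihood F tests with Benjamini-Hochberg adjustment over all genes tested. The model was time plus arm, and the effects at each time and their difference came from a model of the 4 group means. DESeq2 1.42.0 and limma-voom 3.58.1 were run as alternatives, along with other scaling and filters, a replicate block, each library left out, offsets for transcript length and GC, and 2 libraries left out together. The offsets and the 2 libraries were chosen after seeing the data. The fits were tested on simulated data. Nothing in the labels says more of the replicates than separate mice, and p-values measure the spread between them.

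The text names Cdkn2a and 6 genes fixed with it, the 12 largest rises and falls among called genes of at least 5 CPM with no overlap at either time, and up to 4 called members of each list. It also names the 5 genes of similar size at both times with the lowest pooled p, and the 5 called genes with the lowest interaction p. Genes named beyond this rule, also in the closing section, were chosen after their values were seen, and some that it names are not reported here. The 37 gene lists held 1031 members, of which 1025 matched the table. The members and lists were chosen with earlier results of these data known. Promoter windows come from RefSeq (GRCm38.p6), and 224 of the 281 called genes had a window. Gene positions, exon overlaps and transcript lengths come from GENCODE vM21 (GRCm38).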

Additional observations from a re-analysis of the deposited data

Results flagged for a closer look

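Erbb3, a receptor of the epidermal growth factor family, had opposite effects at the times, and the test of that difference passed the threshold. It had 156, 127 and 148 CPM in P16 mice at 0 h, against 101, 84.8 and 88.1 CPM in GFP mice. At 48 h it had 58.7, 50.8 and 50.8 CPM in P16 mice, against 92.6, 94.8 and 86.9 CPM in GFP mice. The log2 fold change was 0.65 at 0 h (edgeR, adjusted p = 0.0298) and -0.77 at 48 h (adjusted p = 0.00662), a difference of -1.43 (adjusted p = 0.00131). The pooled value was -0.06, and Erbb3 was the 1 gene called at both single times. The difference kept its sign and its call under all 21 alternatives.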

How the results depend on the processing

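The 281 pooled calls became 605 with DESeq2, 92 with a replicate block, 120 with offsets for length and GC and 111 when GFP replicate 2 at 0 h was left out together with P16 replicate 2 at 48 h, and ranged from 57 to 391 with 1 library left out. For the 193 genes without overlap the values were 311, 75, 88 and 102, and 53 to 321. The 27 calls at 0 h became 160 without the filter on low counts, 214 with DESeq2 and 17 with limma-voom, and ranged from 5 to 148. The 280 calls at 48 h became 538, 707 with DESeq2, 150 with the block and 145 without the pair of libraries, and ranged from 10 to 665. The 12 interaction calls became 173 without the filter, 4 at 5 CPM or more, 225 with DESeq2, 1 with limma-voom, 4 without robust estimation, 44 with the block, 24 with the offsets and 28 without the pair, and ranged from 2 to 76. Cdkn2a ranged from 8.46 to 11.68 with 1 library left out and was 8.36 without the pair. Mki67 turned positive with limma-voom (0.0238), the offsets (0.0297) and without the pair (0.0410), as did Thbd with limma-voom (0.0877), and none of these values was called; Mki67 ranged from -0.2665 to -0.0250 with 1 library left out. The causes were not tested. Same-numbered replicates did not deviate together (18 correlations of -0.109 to 0.063), so the numbers do not pair the mice, and 0 libraries correlated best with their own number. With 3 mice a group, the median SE of a pooled log2 fold change was 0.149.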

Other observations

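Tcf24 and Ppp1r42 lie next to each other on the minus strand of chromosome 1 and were both called higher at low levels. Tcf24 had 25, 3 and 49 reads in P16 mice at 0 h, against 4, 5 and 4 reads in GFP mice, and 155, 119 and 51 reads in P16 mice at 48 h, against 8, 3 and 7 reads in GFP mice (log2 fold change 3.73, edgeR adjusted p = 0.0122). The groups overlapped at 0 h. Ppp1r42 had 5, 0 and 5 reads in P16 mice at 0 h, against 1, 1 and 0 reads in GFP mice, and 28, 22 and 16 reads in P16 mice at 48 h, against 0, 0 and 0 reads in GFP mice (adjusted p = 0.0213). Ppp1r42 lost its call with limma-voom (0.0545) and without P16 replicate 2 or any GFP library at 48 h (0.0558 to 0.0882). Exons of both overlap those of E330040D14Rik on the other strand, so the source of these reads cannot be told apart.

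Cyp2c69 and Cyp2c68, neighbours of Cyp2c40 and Cyp2c38 on chromosome 19, had log2 fold changes of 2.09 and 0.50 (edgeR, adjusted p = 0.0122 and 0.0279). Cyp2c68 lost its call without P16 replicate 3 at 0 h and without P16 replicate 2 or any GFP library at 48 h (0.0506 to 0.0749). These genes are near-identical, and reads may be split among them.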
